A study of Rattus norvegicus with 10 samples.

Results

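The genes described here are 9 genes of the switch between glucose and fat as fuel, Angptl4, Pdk4, Pdk2, G0s2, Cpt1a, Plin2, Ucp2, Irs2 and Foxo1, in the rat neurointermediate lobe of the pituitary. They were taken as every probe set of the array whose platform annotation names exactly 1 gene symbol and that symbol is one of the 9. This gave 15 probe sets for 9 of the 14217 genes that the annotation names in this way. The neurointermediate lobe joins the neural lobe, where vasopressin and oxytocin axons end among glial pituicytes, to the intermediate lobe of melanotrophs. The 5 dehydrated arrays came from male Sprague Dawley rats of 10 to 12 weeks dehydrated for 3 days, and the 5 control arrays came from control rats of the same strain, sex and age. Each array carried RNA pooled from 5 animals, so the spread between arrays is a spread between pools and not between animals. Food intake and body weight are not given in the labels. The design text of the series names the supraoptic nucleus, another tissue than that in the labels of the single samples, which were taken as the source.

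When glucose is scarce, cells turn to fatty acids. The peroxisome proliferator-activated receptors (PPARs), nuclear receptors that fatty acids activate, raise transcription of Angptl4, Pdk4, Cpt1a and Plin2, and low insulin lets FOXO1 enter the nucleus, where it activates Pdk4 and Irs2. The products act at successive steps: release of fatty acids from lipoproteins and droplets, entry of fatty acids into mitochondria, closure of the pyruvate route, and the insulin signal that reverses all of these.

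Of the 9 genes, 3 rose in dehydrated lobes, Angptl4, G0s2 and Pdk4, and none fell. Angptl4 was 4.22-fold, G0s2 2.08-fold and Pdk4 1.65-fold higher. The other 6, Cpt1a, Plin2, Ucp2, Pdk2, Foxo1 and Irs2, did not pass the test, with folds between 0.896 and 1.22. Passing means an adjusted p under 0.05 in a limma fit over all 18625 probe sets kept after a filter on dim ones, of which 2.46% passed, 1.68% as higher and 0.784% as lower (312 and 146 probe sets, or 456 and 113 with arrays centred on their medians). Among 10593 genes, each read from its brightest kept probe set, 2.31% passed as higher and 0.878% as lower. The 9 genes were chosen with results of these data known, so their count against these shares is a description.

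**Figure D1:**
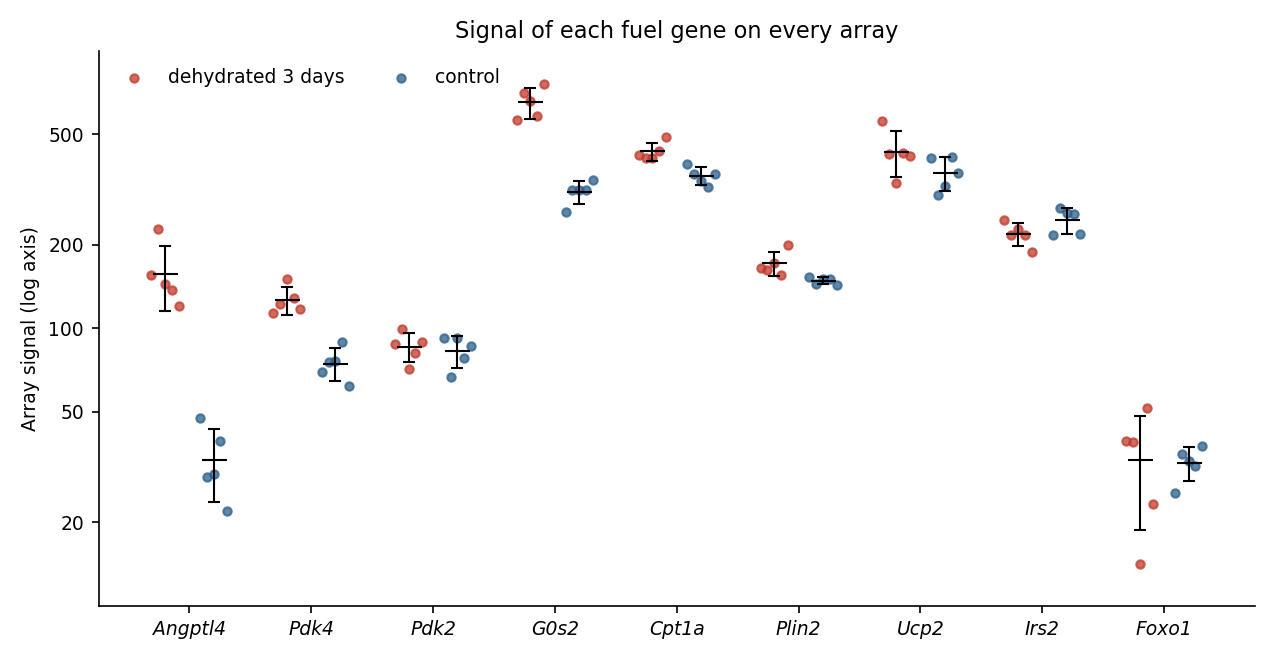
Array signal (log axis) of the probe set used for each of the 9 genes, with 1 point per array, 5 dehydrated (left, red) and 5 control (right, blue), and bars for mean and SD. The dehydrated points of Angptl4, Pdk4, G0s2, Cpt1a and Plin2 lie above all control points, with wide gaps for Angptl4 (120 to 227.1 against 21.9 to 47.4) and G0s2 (561 to 760.5 against 261.3 to 340.9).

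Angptl4 and G0s2 encode proteins that restrain the release of fatty acids. Angptl4 encodes angiopoietin-like 4, a secreted protein that inactivates lipoprotein lipase and so limits the uptake of circulating triglyceride. Its signals were 155.4, 227.1, 144.4, 137.4 and 120 on dehydrated arrays 1 to 5, against 47.4, 29.2, 29.9, 39.2 and 21.9 on control arrays 1 to 5. The lowest dehydrated array was above the highest control array without any overlap. The means were 157 ± 41.3 in dehydrated and 33.5 ± 9.90 in control lobes (SD, n = 5 each), a log2 change of 2.08 ± 0.18 (SE, 95% interval 1.69 to 2.47, limma adjusted p = 6.08e-06). Log2 changes were computed after adding a pseudocount of 5 to each signal, which understates the change of dim genes. By its p Angptl4 stood at place 13 of the 18625 probe sets.

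G0s2 encodes the G0/G1 switch protein 2, which inhibits adipose triglyceride lipase, the first enzyme of droplet lipolysis. Its signals were 561, 702, 656.4, 582.2 and 760.5 in dehydrated lobes, against 261.3, 315.7, 315.4, 316 and 340.9 in control lobes. The groups were far apart, and the control arrays lay close together apart from control 1. The means were 652 ± 82.8 in dehydrated and 309.9 ± 29.3 in control lobes (SD, n = 5 each), a log2 change of 1.06 ± 0.09 (SE, 95% interval 0.86 to 1.26, limma adjusted p = 6.08e-06). G0s2 stood at place 12 of all probe sets, next to Angptl4.

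Pdk4 and Pdk2 encode kinases that phosphorylate and shut down the pyruvate dehydrogenase complex, Pdk4 being the isoform that fasting induces and Pdk2 a widely expressed one. Pdk4 had signals of 113.1, 122.4, 150.5, 128.3 and 117.1 in dehydrated lobes, against 69.4, 75.7, 76.3, 89.1 and 61.8 in control lobes. The groups did not overlap, and dehydrated 3 was highest. The means were 126 ± 14.7 in dehydrated and 74.5 ± 10.1 in control lobes (SD, n = 5 each), a log2 change of 0.73 ± 0.11 (SE, 95% interval 0.48 to 0.97, limma adjusted p = 0.00208). A second Pdk4 probe set was dimmer than 75.2% of all probe sets and fell under the filter. It read 15.6, 4.4, 18.8, 20.4 and 19 in dehydrated lobes, against 9.1, 10.8, 3.1, 15.1 and 3 in control lobes, and its log2 change was 0.66 (95% interval -0.06 to 1.37, limma adjusted p = 0.436) in a fit without a filter, where 1.03% of all probe sets passed. Its estimate lay close to that of the first probe set, with an interval that includes 0.

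Pdk2 overlapped fully between the groups. Its signals were 87.7, 99.4, 71.4, 81.3 and 88.9 in dehydrated lobes, against 92.2, 66.5, 92.2, 77.9 and 86.4 in control lobes. The log2 change was 0.05 (95% interval -0.21 to 0.30, limma adjusted p = 0.888), so that the interval leaves out a change as large as the 0.73 of Pdk4. Its sign turned when dehydrated 2 or control 2 was left out, with log2 changes of -0.01 and -0.03. The second Pdk2 probe set, under the filter, gave -0.23 (95% interval -0.93 to 0.48, limma adjusted p = 0.837 in the fit without a filter).

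The other 2 genes of fat handling came with less certain values. Cpt1a encodes carnitine palmitoyltransferase 1A, the outer membrane enzyme that commits long-chain fatty acids to mitochondrial oxidation. Its signals were 422.6, 411.2, 411.3, 434.7 and 488.2 in dehydrated lobes, against 391.8, 359.4, 337.9, 322.4 and 359.4 in control lobes. The groups did not overlap, but the gap between dehydrated 2 and control 1 was small. The log2 change of 0.29 ± 0.08 (SE, 95% interval 0.13 to 0.45) missed the threshold (limma adjusted p = 0.0570). It passed without control 1 (adjusted p = 0.0443), with arrays centred on their medians (0.0475), among the brightest 40% of probe sets (0.0413) and without dehydrated 5 and control 1 together (0.0371). A second, dimmer probe set of Cpt1a had signals of 23.4 to 55.9 in dehydrated and 28.6 to 66 in control lobes and a log2 change of -0.16 (95% interval -0.64 to 0.31, limma adjusted p = 0.760). With both probe sets averaged, Cpt1a changed by 0.06 (adjusted p = 0.839).

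Plin2 encodes perilipin 2, a coat protein of lipid droplets in most cells. Its signals were 164.9, 162.7, 172.3, 155.8 and 200.2 in dehydrated lobes, against 153.5, 144.5, 150.4, 150.1 and 143.6 in control lobes. The groups did not overlap, narrowly so between dehydrated 4 and control 1. The log2 change was 0.19 ± 0.09 (SE, 95% interval 0.01 to 0.38, limma adjusted p = 0.255). The second Plin2 probe set overlapped between the groups, at 71.8 to 87.7 in dehydrated and 63.6 to 78.7 in control lobes, with a log2 change of 0.07 (adjusted p = 0.781). In all, dehydrated arrays lay wholly above control arrays for 5 of the 9 genes, beside 2.78% of all probe sets tested. They lay wholly below for none, beside 1.81% (4.59% in either direction). These are shares of probe sets, and the share of genes was not computed.

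Ucp2 encodes a carrier of the inner mitochondrial membrane of the uncoupling protein family. Its signals were 558.2, 425.5, 334.1, 428.3 and 415.9 in dehydrated lobes, against 411.7, 301, 324.9, 413.3 and 362.7 in control lobes. The groups overlapped, and dehydrated 1 stood above the other arrays. The log2 change was 0.24 ± 0.12 (SE, 95% interval -0.01 to 0.50, limma adjusted p = 0.311).

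The insulin branch, Irs2 and Foxo1, showed no change that passed. Irs2 encodes the insulin receptor substrate through which the receptor reaches phosphatidylinositol 3-kinase. Its signals were 245.5, 216, 228.3, 216.4 and 188.4 in dehydrated lobes, against 216.1, 272.2, 260.1, 258.8 and 218.7 in control lobes. The log2 change was -0.16 ± 0.09 (SE, 95% interval -0.36 to 0.04, limma adjusted p = 0.401), the lowest of the 9 genes, with overlapping groups. Foxo1, the transcription factor that insulin keeps out of the nucleus, was dim, and 52.9% of all probe sets were brighter. It read 39.2, 39, 14.1, 51.4 and 23.3 in dehydrated lobes, against 25.4, 35.3, 33.2, 32 and 37.5 in control lobes. The dehydrated arrays lay on both sides of the control arrays, and the log2 change was -0.06 (95% interval -0.57 to 0.45, limma adjusted p = 0.928). Its sign turned without dehydrated 3 (0.16) or dehydrated 5 (0.02). The other 2 Foxo1 probe sets stayed at or below a signal of 6 on every array, dimmer than 96.9% and 97.5% of all probe sets, and carry no usable level. The transcript level of Foxo1 says nothing of where its protein lies in the cell.

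**Figure D2:**
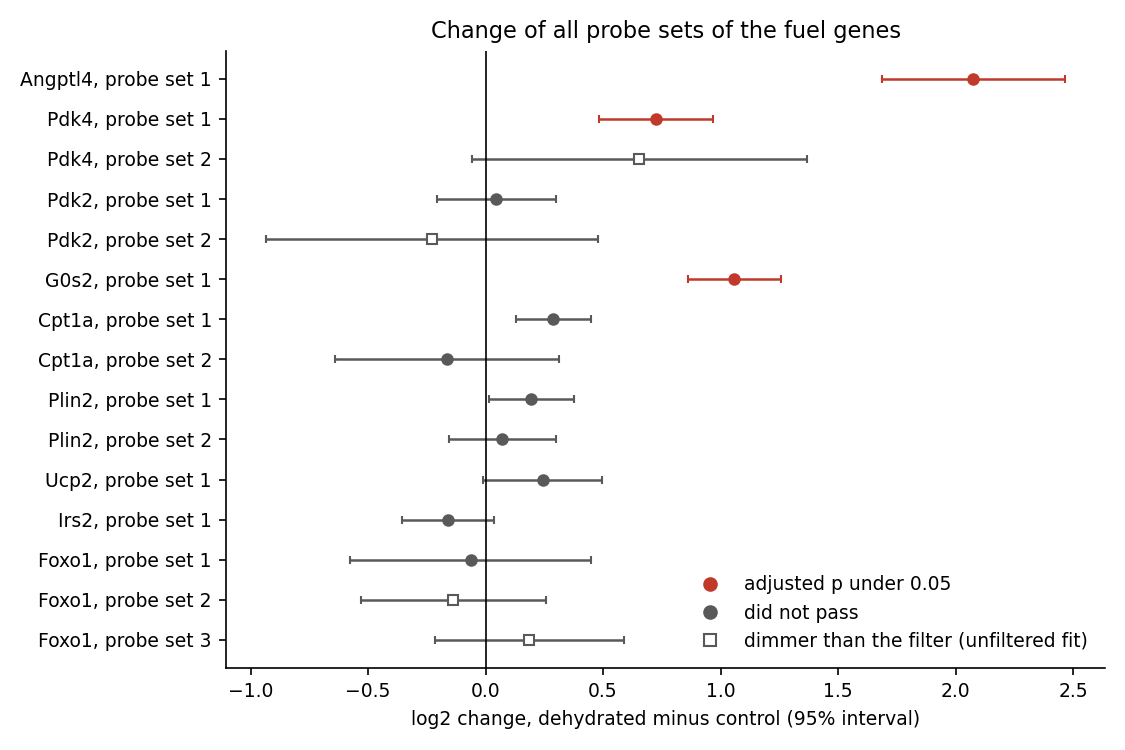
Log2 change (dehydrated minus control) with 95% interval for all 15 probe sets of the 9 genes, 11 that passed the filter on dim signals (circles) and 4 dimmer ones (open squares, from the fit without a filter). Angptl4, G0s2 and the first Pdk4 probe set (red) passed the test, and the second probe sets of Cpt1a and Pdk2 lie on the other side of 0 from the first.

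The sequences before the start sites of the 3 genes that rose are shown because each of these genes was higher in dehydrated lobes. They are the 250 bases before the transcription start given for each gene by RefSeq on assembly GRCr8, written 5′ to 3′ on the gene's strand.
Angptl4 (GRCr8 chr7:15258682-15258931, minus strand): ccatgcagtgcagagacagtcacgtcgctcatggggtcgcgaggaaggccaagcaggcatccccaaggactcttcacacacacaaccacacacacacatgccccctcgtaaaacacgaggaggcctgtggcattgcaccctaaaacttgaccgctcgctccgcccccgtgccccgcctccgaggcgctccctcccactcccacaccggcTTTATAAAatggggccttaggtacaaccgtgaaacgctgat
Pdk4 (GRCr8 chr4:34568330-34568579, minus strand): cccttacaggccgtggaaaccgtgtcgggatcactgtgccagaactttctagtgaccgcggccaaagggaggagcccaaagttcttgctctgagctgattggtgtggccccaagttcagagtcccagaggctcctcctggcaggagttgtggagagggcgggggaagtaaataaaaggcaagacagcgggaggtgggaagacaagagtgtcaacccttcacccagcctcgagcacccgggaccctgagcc
G0s2 (GRCr8 chr13:107335949-107336198, minus strand): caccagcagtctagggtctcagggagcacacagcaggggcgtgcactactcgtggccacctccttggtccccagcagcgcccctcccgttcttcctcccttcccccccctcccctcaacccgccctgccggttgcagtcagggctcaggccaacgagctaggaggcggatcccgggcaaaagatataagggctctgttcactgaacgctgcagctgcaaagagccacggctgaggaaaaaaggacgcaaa
Capitals mark motifs that were searched for, on both strands, in windows of 300 bases that run from 250 bases before the start to 50 after it. The searched letters were GTAAACA (the core bound by FOXO factors), CAAAACA (the core of insulin response elements), AGGTCA (the core of PPAR and other nuclear receptor sites), AGAACA (the core of glucocorticoid receptor sites) and TATAAA (the TATA box core, added after the sequences were seen). They occur in 3.8%, 6.3%, 16.2%, 20.7% and 14.2% of the 33469 windows of the table. In the 9 windows of the 8 genes that matched, all but Irs2, AGGTCA was found in 1, that of G0s2, on the reverse strand 23 to 28 bases after the start and so outside the printed stretch. TATAAA was found in that of Angptl4, 39 to 34 bases before the start on the gene's strand and, overlapping it, 41 to 36 bases before the start on the other strand. No other match lay in these windows, which says only that these letters are not there.

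Angptl4 rose by more than Pdk4, and Pdk4 changed by more than its relative Pdk2. To compare these changes without regard to how arrays were scaled, the log2 values of 2 genes were subtracted within each array. The differences were compared by an exact two-sided permutation test over all splits of the arrays into 5 and 5, whose smallest p is 0.00794. Benjamini-Hochberg adjustment was over the 5 pairs. The pairs were chosen with the changes of Angptl4 and Pdk4 in these arrays known, so their p-values describe differences partly seen beforehand. Pdk4 minus Pdk2 averaged 0.53 ± 0.30 in dehydrated and -0.15 ± 0.31 in control lobes (SD, n = 5 each), a difference of 0.68 (exact permutation p = 0.00794, adjusted p = 0.0132). Angptl4 minus Pdk4 averaged 0.28 ± 0.38 in dehydrated and -1.07 ± 0.33 in control lobes (SD, n = 5 each), a difference of 1.35 (exact permutation p = 0.00794, adjusted p = 0.0132). In both pairs every dehydrated array was above every control array. Plin2 minus G0s2 averaged -1.90 ± 0.12 in dehydrated and -1.03 ± 0.17 in control lobes (SD, n = 5 each), a difference of -0.86 (exact permutation p = 0.00794, adjusted p = 0.0132), so that the droplet coat changed by less than the lipase inhibitor. The groups did not overlap there either. Foxo1 minus Irs2 averaged -2.64 ± 0.62 in dehydrated and -2.73 ± 0.19 in control lobes (SD, n = 5 each), a difference of 0.10 that did not pass (exact permutation p = 0.730, adjusted p = 0.810). Cpt1a minus Ucp2 averaged 0.02 ± 0.27 in dehydrated and -0.03 ± 0.22 in control lobes (SD, n = 5 each), a difference of 0.05 that did not pass (exact permutation p = 0.810, adjusted p = 0.810).

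**Figure D3:**
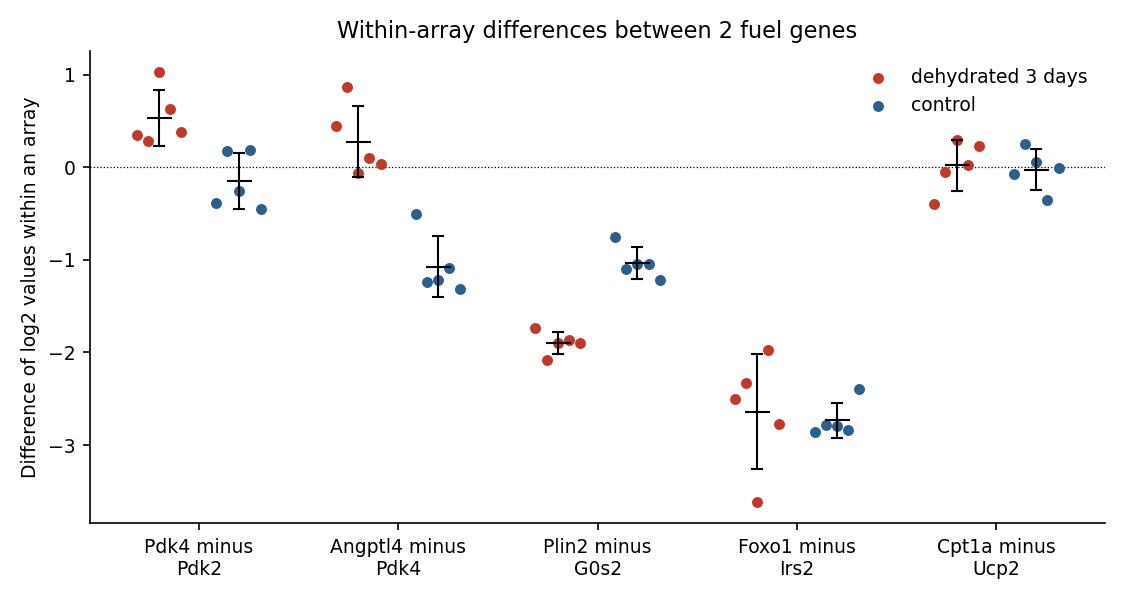
Difference of the log2 values of 2 genes within an array, for 5 pairs, with 1 point per array (dehydrated left, control right) and bars for mean and SD. The groups are apart for Pdk4 minus Pdk2, Angptl4 minus Pdk4 and Plin2 minus G0s2, and overlap for Foxo1 minus Irs2 and Cpt1a minus Ucp2.

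Angptl4 also varied with RNA integrity within each group. Integrity was read from the control probe sets of GAPDH and beta-actin, as the log2 signal at the 3' end minus that at the 5' end (the 3' to 5' ratio), which is higher where RNA is more degraded or less fully copied. The ratio was 2.15 ± 0.38 in dehydrated and 1.78 ± 0.48 in control lobes (SD, n = 5 each, exact two-sided permutation p = 0.214). The dehydrated arrays ran in the same order by ratio and by Angptl4 signal, from dehydrated 5 (ratio 1.61) to dehydrated 2 (ratio 2.67). Among control arrays, control 1 had both the highest ratio (2.52) and the highest Angptl4 signal, and control 5 had the lowest of both (ratio 1.26). In a limma fit with group and ratio together, a step added after these values were seen, the Angptl4 signal was higher by 0.78 ± 0.14 on the log2 scale (SE) for each unit of the ratio (limma adjusted p = 0.00381). This slope passed for 1 of the 9 genes, beside 4.32% of all probe sets. It was 0.06 for Pdk4 (adjusted p = 0.867) and -0.22 for G0s2 (adjusted p = 0.280), and the slopes of the 3 genes were not tested against each other. With the ratio in the fit the log2 change was 1.79 for Angptl4 (3.45-fold, limma adjusted p = 1.45e-07), 1.14 for G0s2 (adjusted p = 1.41e-06) and 0.70 for Pdk4 (adjusted p = 0.00534), so that all 3 still passed, in a fit where 1.18% of all probe sets passed as higher.

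**Figure D4:**
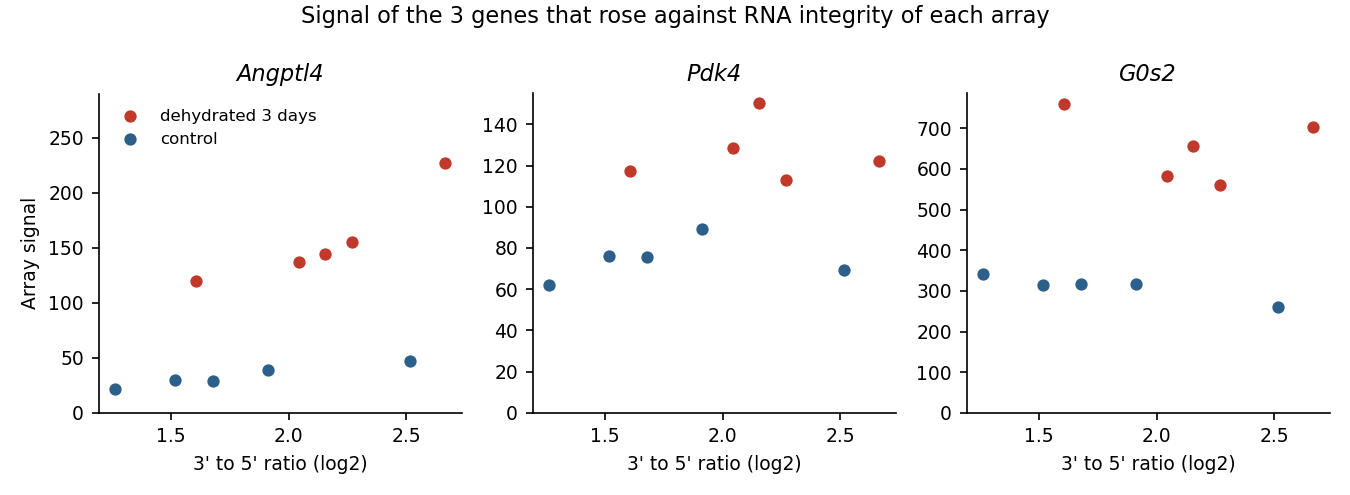
Array signal (linear axis from 0) of Angptl4, Pdk4 and G0s2 against the 3' to 5' ratio of each array (log2), 5 dehydrated arrays in red and 5 control arrays in blue. Angptl4 is higher on arrays of higher ratio in both groups, while its dehydrated points (120 to 227.1) stay above its control points (21.9 to 47.4) at every ratio.

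No other gene of the pathway passed. Of 144 other genes in 9 lists around these steps, 108 were measured above the filter and none passed in either direction (limma), although 16 had an unadjusted p under 0.05 (10 higher and 6 lower). That is a share of 14.8%, beside 17.4% of all probe sets at the same unadjusted threshold. The former is a share of genes, each read from its brightest kept probe set, and the latter a share of probe sets. The 16 were spread unevenly over the lists. Fatty acid oxidation held 6 of its 21 measured genes (28.6%, 5 higher and 1 lower). FOXO factors and targets held 4 of 19 (21.1%, all higher). Fatty acid uptake held 2 (both lower), insulin signalling 2 (1 higher and 1 lower), and lipid droplets and uncoupling proteins 1 each (lower). The remaining lists held none. The median log2 change of the 108 was 0.00, beside -0.01 over all probe sets tested. The count of 0 was not stable: 5 of the genes passed without dehydrated 5 and 1 without control 1. List medians were small and moved with the processing, and those of 8 of the 9 lists took both signs over the 22 alternatives.

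Of 21 measured genes of fatty acid oxidation, 14 had a positive change (66.7%, beside 51.6% of all genes measured), with a median of 0.06 that ranged from 0.03 to 0.13 over the alternatives (0.12 without dehydrated 2). Summed signals over the 22 on the array were 6418 to 6978 in dehydrated and 6257 to 6390 in control lobes, without overlap. Acadl, the long-chain acyl-CoA dehydrogenase, came nearest to passing, at 268 ± 19.3 in dehydrated and 210.3 ± 24.4 in control lobes (SD, n = 5 each; log2 change 0.35 ± 0.09 SE, limma adjusted p = 0.0534). Its groups did not overlap, and it passed under 7 of 22 alternatives (adjusted p 0.0313 to 0.0493). The 10 genes of fatty acid uptake and lipoprotein lipase handling had a median of -0.19, which was -0.10 without dehydrated 2, -0.12 with the 3' to 5' ratio in the fit and 0.03 among the brightest 40% of probe sets, where 7 of the genes were left. Lpl, the lipoprotein lipase that Angptl4 protein inhibits, had signals of 327 ± 35.3 in dehydrated and 389 ± 21.4 in control lobes (SD, n = 5 each) without overlap, a log2 change of -0.25 ± 0.08 (SE) that did not pass (limma adjusted p = 0.118). Without dehydrated 5 it was -0.29 and passed (adjusted p = 0.0439).

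The 13 genes of lipid droplets and lipolysis had a median of -0.01, and the one with the smallest p was Plin3, another droplet coat protein, at -0.32 (limma adjusted p = 0.233). The 12 genes of the pyruvate dehydrogenase complex and pyruvate entry had a median of 0.00 and a range of -0.09 to 0.15. The smallest p was that of Dld, the dihydrolipoamide dehydrogenase gene, at 0.14 (adjusted p = 0.405). Thus the kinase Pdk4 rose while none of these 12 genes passed in the main fit. Mpc1, a gene of this list named outside the rule given below, passed without dehydrated 5 (0.22, limma adjusted p = 0.0483). The list was not complete: Dlat and Pcx had no probe set with their symbol alone, and Pdpr fell under the filter. The 4 measured ketone body genes and monocarboxylate transporters had a median of -0.01, with Slc16a7, a transporter, at -0.20 (adjusted p = 0.447). The 5 uncoupling proteins and related carriers had a median of -0.04, and Slc25a27 was at -0.28 (adjusted p = 0.128), or -0.09 with the 3' to 5' ratio in the fit.

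The 9 measured PPAR receptors and coactivators had a median of -0.06, with the coactivator gene Ppargc1a at -0.22 (limma adjusted p = 0.376). The probe sets of Ppara, Pparg and Rxra, named here because they fell under the filter, averaged 3.04, 10.9 and 3.02 units of signal in dehydrated and 1.96, 12.9 and 2.22 in control lobes, and were not tested in the main fit. The 15 genes of insulin signalling had a median of 0.02. Pik3r1, the regulatory subunit of phosphatidylinositol 3-kinase, had a log2 change of -0.75 ± 0.29 (SE, adjusted p = 0.195) on overlapping groups, and passed without dehydrated 5 (-0.97, adjusted p = 0.0433). It was -0.42 without dehydrated 2 (adjusted p = 0.309) and -0.32 with the 3' to 5' ratio in the fit (adjusted p = 0.561). The 19 FOXO factors and targets had a median of 0.04, and Txnip, an inhibitor of glucose uptake, was at 0.24 ± 0.07 (SE, adjusted p = 0.0957) without overlap. Summed signals over the 23 of this list on the array were 5795 to 6414 in dehydrated and 5595 to 5711 in control lobes, also without overlap. Txnip alone averaged 1253 in dehydrated and 1064 in control lobes. Apart from this list and fatty acid oxidation, the sums of the pathway lists overlapped between the groups. The sums were not tested.

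**Figure D5:**
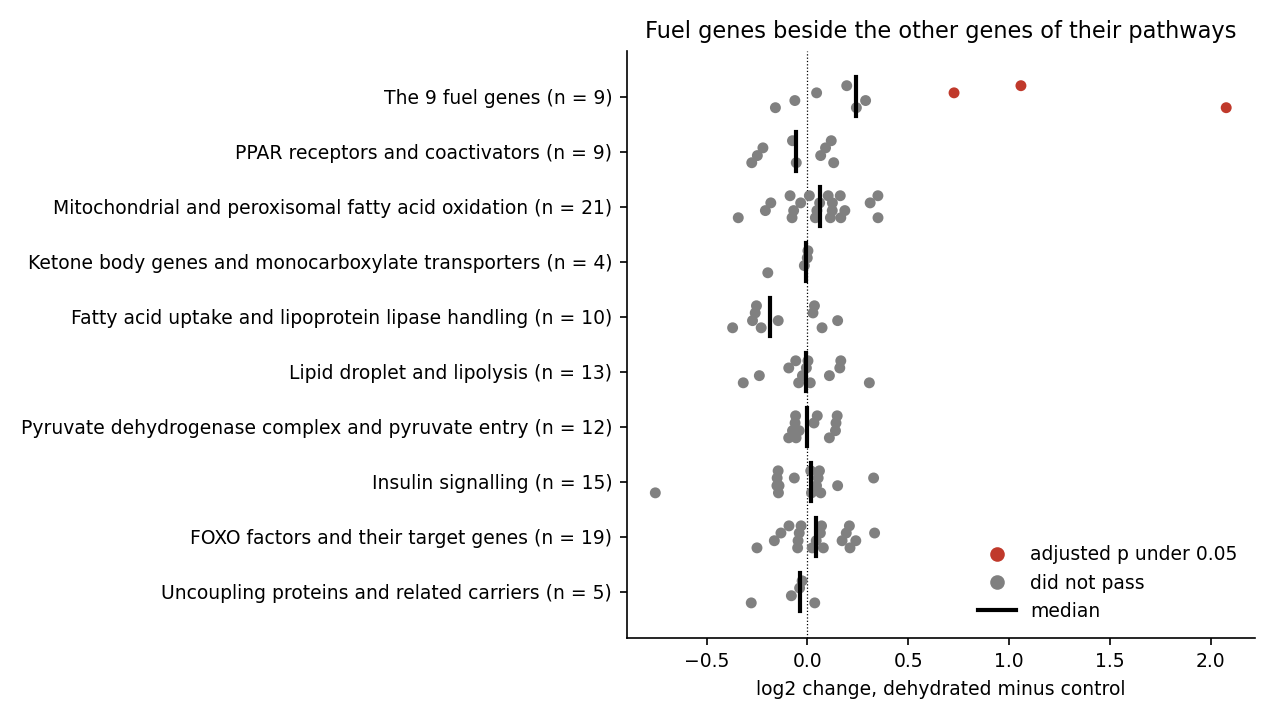
Log2 change (dehydrated minus control) of each measured gene, by list, with a bar at the median of each list and the 9 fuel genes in the top row. Angptl4, G0s2 and Pdk4 (red) passed the test and lie to the right of every gene of the 9 lists below, none of which passed.

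The genes whose profile over the 10 arrays was most like that of Angptl4 were sought among 10592 genes, as the smallest root mean square difference between profiles scaled to mean 0 and SD 1. They were Cd14, a receptor for bacterial lipopolysaccharide (difference 0.166), Cnot2, a subunit of the CCR4-NOT deadenylase (0.225), Mgp, an inhibitor of mineralization (0.234), Cr1l, a complement regulator (0.236), and Htra1, a secreted serine protease (0.243). Pdk4 stood at place 73 by this measure with a difference of 0.404, G0s2 at place 119 with 0.440 and Cpt1a at place 619. Irs2 was the most distant of the 9, at place 8736. Cd14 had a signal of 182 ± 22.2 in dehydrated and 91.5 ± 10.2 in control lobes (SD, n = 5 each; log2 change 0.95 ± 0.11 SE, limma adjusted p = 0.000103). Genes chosen for likeness to Angptl4 differ between the groups by that choice, so this p is no separate result. The change of Cr1l was 0.26 and became -0.01 when its probe sets were averaged.

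In whole tissue, more cells of a type and more RNA per cell cannot be told apart. Markers of several cell types also differed between the groups. All 9 pituicyte and astroglia markers and all 5 melanotroph markers on the array were above the filter. Adipocytes express Angptl4 and G0s2 strongly. Of 9 adipocyte markers on the array only Lipe, Cfd and Gpd1 were above the filter, and none of the 3 passed (Lipe 0.17, limma adjusted p = 0.630). The summed signal of the 9 adipocyte markers was 196 to 253 in dehydrated and 205 to 285 in control lobes. No marker was at 0 on any array. Adipoq, which defines adipocytes and is named outside the rule given below, averaged 11.3 in dehydrated and 7.64 in control lobes. It was dimmer than 78.5% of all probe sets. Of the 3 adipocyte markers above the filter 1 had a positive change, and their median was -0.04. In the fit without a filter 3 of the 9 adipocyte markers had a positive change, and their median was -0.07.

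Some markers of other cell types passed, beside 2.31% of all genes measured as higher and 0.878% as lower. Of 8 fibroblast and meningeal markers 4 rose (Postn 1.24, Mgp 0.99, Lum 0.55 and Dcn 0.43), and their summed signal was 9474 to 11945 in dehydrated and 6540 to 7219 in control lobes. Of 11 measured endothelial and pericyte markers 4 rose (Flt1 0.90, Rgs5 0.72, Kdr 0.63 and Emcn 0.51), with sums over the 13 markers on the array of 1580 to 1893 in dehydrated and 1057 to 1396 in control lobes. Flt1 did not pass without dehydrated 3 (adjusted p = 0.0589). Of 8 measured macrophage markers 1 rose, Aif1 at 0.42, a call lost without any of 6 arrays. Without dehydrated 1, 0 of the 8 passed as higher and 1 as lower. Sums over the 11 on the array were 1331 to 2109 in dehydrated and 1320 to 1759 in control lobes. Of 9 pituicyte markers 3 rose (Gfap 2.38, Lhx2 0.39 and Slc1a3 0.36, the last at 0.04 with its probe sets averaged), with sums of 5204 to 5920 in dehydrated and 4651 to 5078 in control lobes. Of 5 melanotroph markers 1 fell (Pcsk2, -0.88), with sums of 4341 to 4937 in dehydrated and 5143 to 5886 in control lobes. Of 6 measured anterior lobe markers 1 fell (Fshb, -0.86) and the other 5 had positive changes that did not pass. The median of the 6 was 0.29, or 0.05 without control 5 and 0.04 with the 3' to 5' ratio in the fit, and Tshb, chosen after its values were seen, was at 1.17 and passed without dehydrated 1 (1.71, adjusted p = 0.0396). The sums over the 8 on the array were 4837 to 9424 in dehydrated and 2587 to 7973 in control lobes. Neither of 2 measured red blood cell markers passed (Hbb 0.24, adjusted p = 0.191). Sums over the 3 on the array were 2816 to 3575 in dehydrated and 2382 to 3042 in control lobes. The part of these cell types in the changes of Angptl4, G0s2 and Pdk4 was not tested.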

How the data were processed

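RNA from the neurointermediate lobe was hybridised to Affymetrix Rat Genome 230 2.0 arrays, 5 from dehydrated and 5 from control pools. The deposited values, linear intensity for each probe set, were made by the authors with GCOS 1.2, per the submitters' processing notes, whose settings and detection calls are not given in the sources used here. The mean after trimming 2% at each end was 100 on all arrays, so no further scaling was applied and changes are relative to the average probe set. Of 31099 probe sets, 57 controls were left out, and of the rest 20826 had 1 gene symbol, 436 several and 9780 none. Values were taken as log2(signal + 5), and the brightest 60% by mean over all arrays (18625, a filter blind to group) were kept. That held 11 of the 15 probe sets described, with at least 1 for each gene. A gene was read from its brightest kept probe set. The test was that of limma (version 3.58.1, under R 4.3.3) with lmFit and eBayes (intensity trend, two-sided, Benjamini-Hochberg over all kept probe sets). Exact permutation tests used Python 3.11.15 with numpy 2.4.6, and figures matplotlib 3.10.9. Promoters came from RefSeq (GRCr8). Array numbers were given in deposition order as names only.

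Tested on simulated data for this comparison (18625 probe sets, 50 changed at each size), the fit recovered 38% of log2 changes of 0.5, 94% of changes of 1 and 100% of changes of 2 or 3. False calls were 8 of 174 (4.6%). The simulated noise was drawn separately for each probe set and array. It holds no variation that probe sets share, such as that with the 3' to 5' ratio, so these rates cover that setting only. Array number limits the precision. Detection calls were not used, so no probe set is called absent.

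The 9 genes, the 9 pathway lists, the 8 marker lists and the 5 pairs were chosen with earlier results of these data known, among them the changes of Angptl4 and Pdk4. Named are the 9 genes, up to 4 called genes of each list (with none called, the gene with the smallest p), and the 5 genes most like Angptl4. Alternatives covered the pseudocount, normalization, filter, variance model, RNA integrity, probe set averaging and the leaving out of arrays.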

Additional observations from a re-analysis of the deposited data

Results flagged for a closer look

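Within a group of 5 arrays, 7 of 100 sets of values had an array set far apart from the rest, by a gap of more than 0.71 of the group's range, where chance gives about 1 in 20. The second Pdk4 probe set read 4.4 on dehydrated 2, against 15.6 to 20.4 on the other dehydrated arrays. The Foxo1 probe sets under the filter read 5.9 on control 1 (others 0.9 to 1.5) and 6 on dehydrated 1 (others 0.9 to 1.7), levels at which the array gives little information. The difference Angptl4 minus Pdk4 was -0.51 on control 1, against -1.31 to -1.09 on the other control arrays, and control 1 also had the highest 3' to 5' ratio of its group. The difference Foxo1 minus Irs2 was -2.40 on control 5, against -2.86 to -2.78. Outside the 9 genes, Acadl read 302 on dehydrated 4 (others 253 to 264), and the pericyte marker Rgs5 read 93.3 on control 1 (others 113 to 121).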

How the results depend on the processing

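Angptl4, G0s2 and Pdk4 kept their direction and passed under all 22 alternatives, with log2 changes of 1.79 to 2.28, 0.94 to 1.14 and 0.65 to 0.79 and limma adjusted p of at most 0.000232, 0.000491 and 0.00999. The number of the 9 genes that passed was 3 or 4 (leaving out 1 array, 3 to 4), the fourth being Cpt1a. Pdk2 ranged from -0.027 to 0.11 and Foxo1 from -0.23 to 0.16 when 1 array was left out, the second Cpt1a probe set turned to 0.11 when the fit held RNA integrity, and Cr1l to -0.011 with probe sets averaged. The 3 pair differences that passed did so under the 15 alternatives run for pairs (pseudocount, scaling, averaging and 1 array left out, adjusted p 0.0132 to 0.0397). Averaging left the log2 values of Angptl4, G0s2, Pdk4 and Pdk2 as they were, because no other probe set of these genes was kept. It was thus no separate check of Pdk4 minus Pdk2 or Angptl4 minus Pdk4. Pairs were not run with RNA integrity or without dehydrated 5 and control 1. Without 1 array, Foxo1 minus Irs2 ranged from -0.070 to 0.34 and Cpt1a minus Ucp2 from -0.036 to 0.15, and Cpt1a minus Ucp2 was -0.18 with probe sets averaged (exact permutation adjusted p = 0.496). The cause was not tested. Over all probe sets, 458 passed (312 higher), 240 without an intensity trend, 1398 without dehydrated 5 and control 1, and 218 (without dehydrated 3) to 1156 (without dehydrated 5) when 1 array was left out. The 0 calls among the pathway genes became 1, Acadl, under cyclic loess or quantile scaling, with 40% of probe sets kept or with probe sets averaged. They became 2, Acadl and Pik3r1, without dehydrated 5 and control 1, and 0 to 5 when 1 array was left out. Foxo1 was not tested among the brightest 40%. No paired analysis was possible because the labels give no replicate numbers or pairing. With 5 pools a group, small changes in the 6 genes that did not pass can be missed, and the dim Foxo1 probe sets give no usable level.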
